A study of Mus musculus with 8 samples.

Results

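Type I interferon stimulated and sensing genes were examined in bulk RNA-seq of small intestinal adenomas from mice on a C57BL/6 background. The members are 37 genes that carry or sense the interferon response, matched by symbol among 48413 named gene rows of the deposited sheet. They comprise 11 sensors of foreign nucleic acid, 3 transcription factors, 7 modifiers of proteins and 16 effectors. All 37 passed the filter on low values, a normalised count of 10 or more in at least 4 libraries, as did 17523 genes in all. The knockout group comprised 4 ApcMin/+ mice with both copies of Sfn (14-3-3σ) deleted, aged 144 to 148 days. The comparison group comprised 4 ApcMin/+ mice, aged 256 to 282 days. Both groups carry the Min mutation of Apc, a truncating allele that gives rise to intestinal adenomas, and no library came from normal tissue. Every knockout mouse was younger than every ApcMin/+ mouse, so genotype and age cannot be told apart in any difference below. The sources used here do not say how the Sfn allele was made or whether adenomas were pooled.

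Type I interferons are secreted when a cell detects foreign or misplaced nucleic acid. RIG-I and MDA5, the products of Ddx58 and Ifih1, detect double-stranded RNA and signal through MAVS to the kinases that activate IRF3 and IRF7. Secreted interferon binds the receptor made of IFNAR1 and IFNAR2, whose kinases JAK1 and TYK2 phosphorylate STAT proteins, STAT2 among them. With IRF9 these form the factor ISGF3, which binds the interferon-stimulated response element (ISRE) in the promoters of target genes. Many sensors and factors of the pathway are themselves targets, so the response amplifies itself. In the intestine, epithelial cells respond both to type I interferon and to the type III interferons of the lambda family.

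The promoters of 5 members are shown because each holds the ISRE core and each member had no overlap between the genotypes. They are the 250 bases before the start site, from RefSeq on GRCm38.p6, read on the strand of the gene. The windows are chr5:120887614-120887863 (minus strand) for Oas1g, chr4:156200819-156201068 (minus strand) for Isg15, chr8:71537473-71537722 (minus strand) for Bst2, chr19:34583279-34583528 (plus strand) for Ifit3 and chr12:26456453-26456702 (minus strand) for Rsad2. Capitals mark each match to the core GAAANNGAAA, read on either strand, with overlapping matches run together.
Oas1g: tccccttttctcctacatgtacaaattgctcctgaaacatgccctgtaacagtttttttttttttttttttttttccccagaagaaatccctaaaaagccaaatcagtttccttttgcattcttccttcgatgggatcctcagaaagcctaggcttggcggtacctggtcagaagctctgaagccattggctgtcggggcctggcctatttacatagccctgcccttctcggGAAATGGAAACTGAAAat
Isg15: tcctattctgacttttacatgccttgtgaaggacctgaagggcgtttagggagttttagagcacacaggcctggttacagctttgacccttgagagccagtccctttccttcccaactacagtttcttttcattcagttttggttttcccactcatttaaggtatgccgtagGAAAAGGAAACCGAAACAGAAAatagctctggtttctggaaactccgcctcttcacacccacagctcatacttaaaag
Bst2: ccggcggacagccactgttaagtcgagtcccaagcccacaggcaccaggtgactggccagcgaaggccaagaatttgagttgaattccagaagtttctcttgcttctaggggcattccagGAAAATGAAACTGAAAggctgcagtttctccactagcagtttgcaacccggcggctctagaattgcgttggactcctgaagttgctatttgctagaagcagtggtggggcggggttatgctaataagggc
Ifit3: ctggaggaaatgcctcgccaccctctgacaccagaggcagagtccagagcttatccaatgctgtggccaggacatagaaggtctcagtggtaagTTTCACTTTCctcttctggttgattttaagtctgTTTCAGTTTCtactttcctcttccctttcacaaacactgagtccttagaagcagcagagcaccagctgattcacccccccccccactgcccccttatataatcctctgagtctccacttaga
Rsad2: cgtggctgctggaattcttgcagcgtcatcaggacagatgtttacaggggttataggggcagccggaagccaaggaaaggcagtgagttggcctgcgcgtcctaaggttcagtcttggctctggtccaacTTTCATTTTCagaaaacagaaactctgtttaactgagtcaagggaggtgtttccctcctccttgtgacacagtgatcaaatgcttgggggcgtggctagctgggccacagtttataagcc

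Isg15 held 3 overlapping matches, which began 78, 72 and 66 bases before the start site. Oas1g held 2, beginning 18 and 12 bases before it. Bst2 held 2, at 130 and 124 bases before it, Ifit3 held 2, at 156 and 122 bases before it, and Rsad2 held 1, at 120 bases before it. A promoter window of 250 bases before to 50 bases after the start was found for 27 of the 37 members. The core occurred in 13 of these 27, or 48.1%, and in 1079 of 27025 genes with a promoter entry, or 3.99%. It was present in 3.44% of all 32851 promoters. These matches describe letters and are not evidence of binding. Dhx58, Ifi27, Mx1, Mx2, Oas2, Parp14, Parp9, Rtp4, Usp18 and Zbp1 had no entry.

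The genotype labels were checked on Sfn itself. Its normalised counts were 1, 0, 0 and 1 in knockout libraries, against 14607, 6585, 6989 and 15968 in ApcMin/+ libraries. Here and below, knockout values follow the order unnumbered, 2, 3 and 4, and ApcMin/+ values the order 1 to 4. In the labels, the mouse number on the unnumbered knockout library's column belongs to an ApcMin/+ animal, so its replicate number is unknown. Summed normalised counts per library lay between 36241013 and 38957213 in knockout libraries and between 34182800 and 46707800 in ApcMin/+ libraries. All 11 markers of small intestinal epithelium were detected, with sums of 492937 to 589079 in knockout libraries and 436826 to 803704 in ApcMin/+ libraries. Xist, the non-coding RNA that coats the inactive X, divided the libraries into 2 classes, and the labels give no sex. It was 34488 in the unnumbered knockout library, 30984 and 12334 in ApcMin/+ libraries 2 and 3, and at most 18 in the other 5. Ddx3y, a gene of the Y chromosome, was 1435 to 2132 in those low Xist libraries and at most 2 in the high Xist ones. By both genes the low Xist libraries were male and the high Xist ones female. Sex was thus unbalanced, with 3 knockout and 2 ApcMin/+ libraries male, and 1 knockout and 2 ApcMin/+ libraries female.

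The members as a set were lower in knockout adenomas by their medians, in all 4 roles, though no single member passed the adjusted threshold. They were chosen with earlier results of these data known. Their shares beside those of all genes thus describe these members and are not a test of the pathway. The difference between genotypes was below 0 for 33 of 37 members (89.2%), against 59.0% of all genes tested. Its median was −0.72 on the log2(value + 1) scale, against −0.07 over all genes. In the fit with limma across all genes, 0 members had an adjusted p under 0.05, where 0.143% of all genes were called lower and 0.188% higher. At an unadjusted limma p under 0.05, 21 members were lower, or 56.8% of the members against 11.6% of all genes. By the same measure 0 members were higher, against 7.39% of all genes. In 14 members every knockout library lay below every ApcMin/+ library, or 37.8% of the members against 10.6% of all genes. The reverse held for 0 members, against 5.5% of all genes. The adjusted count rested on the covariate and on single libraries: with genotype alone in the fit 3 members passed as lower (Oas2, Bst2 and Ifi27), against 1.1% of all genes, and without ApcMin/+ library 2 there were 4 (Oas1a, Oas1g, Oas2 and Ifi27), against 0.999%. Without ApcMin/+ library 4, Ifi27 alone passed, against 0.331% of all genes. Without the unnumbered knockout library the members with no overlap numbered 23, against 13.5% of all genes. For 1 gene, the smallest p that the exact permutation test over 4 and 4 libraries allows is 0.0286, which each of those 14 reached (two-sided). In bulk tissue, fewer cells that express a gene and less of its RNA per cell cannot be told apart.

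**Figure D1:**
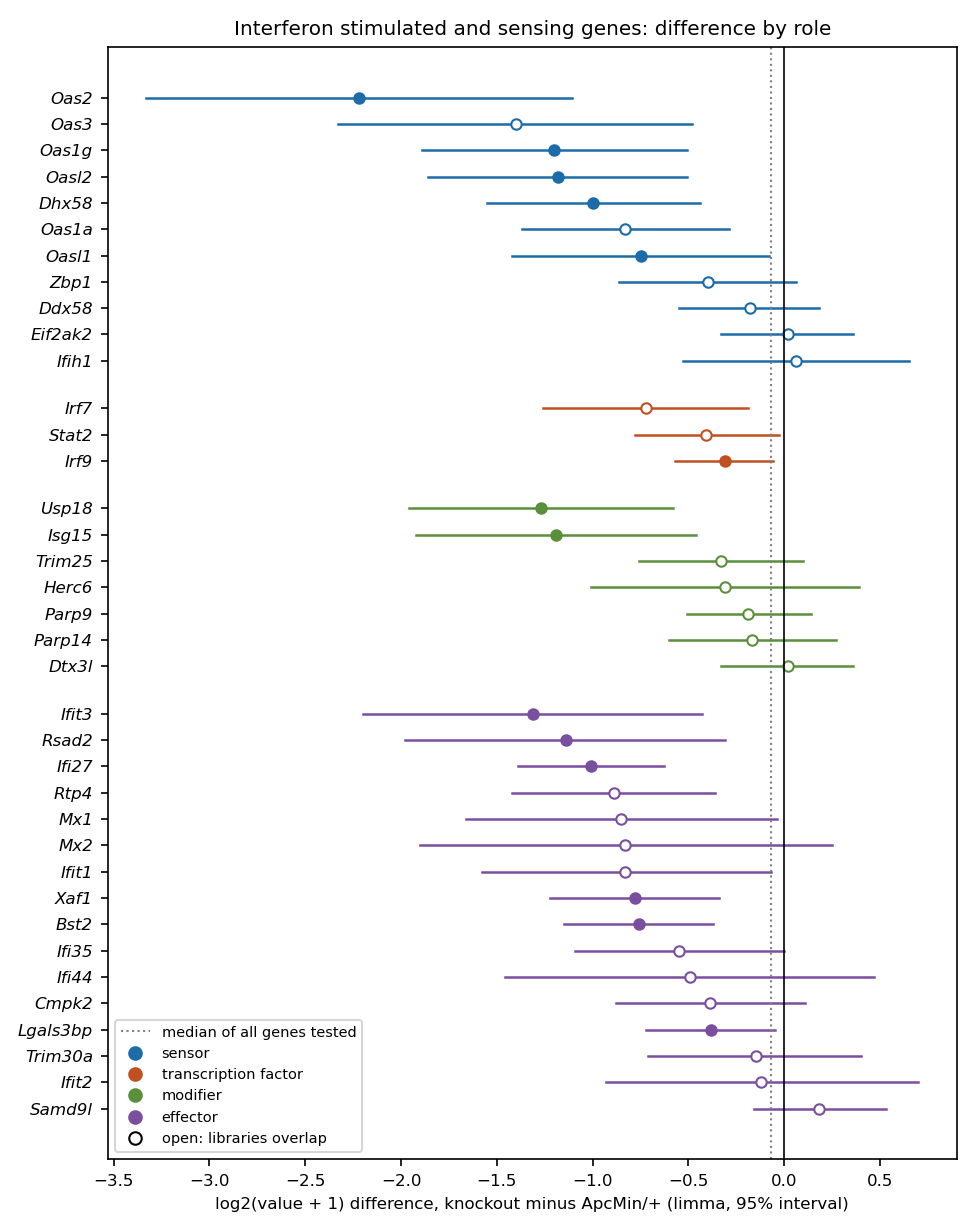
Log2 difference (knockout minus ApcMin/+, on the log2(value + 1) scale) of each of the 37 members, grouped by role, with the 95% interval from limma on the horizontal axis. Of the 37 points, 33 lie below 0, from −2.22 for Oas2 upward, and Samd9l lies furthest above 0 at 0.18.

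Among the sensors, the oligoadenylate synthetase family and Dhx58 stood lowest in knockout adenomas relative to ApcMin/+ adenomas. The median of the 11 sensors was −0.83, 7 were lower at an unadjusted limma p under 0.05 (63.6%, against 11.6% of all genes) and 5 did not overlap (45.5%, against 10.6%). The synthetases make a short oligoadenylate that activates RNase L once they bind double-stranded RNA. Oas2 had 82, 39, 48 and 18 normalised counts in knockout libraries, against 345, 118, 180 and 193 in ApcMin/+ libraries. Its difference was −2.22 (SE 0.49, limma adjusted p = 0.107), the widest of the 37, and the highest knockout library lay under the lowest ApcMin/+ library.

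Oas3 had 484, 170, 181 and 175 normalised counts in knockout libraries, against 793, 441, 410 and 904 in ApcMin/+ libraries (difference −1.40, SE 0.41, limma adjusted p = 0.146). The 3 numbered knockout libraries were close together and the unnumbered one lay within the ApcMin/+ values, so the groups overlapped. Oas1a had 1015, 803, 683 and 791 in knockout libraries, against 2011, 1009, 1197 and 1797 in ApcMin/+ libraries (−0.83, SE 0.24, limma adjusted p = 0.145). Oas1g had 413, 328, 208 and 239 in knockout libraries, against 977, 433, 575 and 770 in ApcMin/+ libraries (−1.20, SE 0.30, limma adjusted p = 0.129). Both were high in ApcMin/+ libraries 1 and 4, and the unnumbered knockout library lay just above ApcMin/+ library 2 for Oas1a and just below it for Oas1g. The 2 genes share sequence, with 68.7% of the 31-base words of Oas1a transcripts also in Oas1g, so the split of reads between them is uncertain. Their sum was 1428, 1131, 891 and 1030 in knockout libraries, against 2988, 1442, 1772 and 2567 in ApcMin/+ libraries, with no overlap and a difference of −0.93.

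Oasl1 and Oasl2 are synthetase-like genes, and in mouse Oasl1 limits translation of Irf7 mRNA. Oasl1 had 2063, 1614, 1830 and 2066 normalised counts in knockout libraries, against 4472, 2106, 2170 and 4908 in ApcMin/+ libraries (−0.75, SE 0.29, limma adjusted p = 0.229). Oasl2 had 1471, 758, 908 and 828 in knockout libraries, against 2710, 1681, 1509 and 3258 in ApcMin/+ libraries (−1.18, SE 0.30, limma adjusted p = 0.127). For both genes the groups did not overlap, but the gap between the nearest libraries was narrow, and ApcMin/+ libraries 1 and 4 stood well above the other ApcMin/+ libraries. Dhx58 encodes LGP2, a relative of RIG-I that modulates signalling by MDA5. It had 278, 141, 260 and 194 normalised counts in knockout libraries, against 508, 379, 452 and 363 in ApcMin/+ libraries (−1.0, SE 0.24, limma adjusted p = 0.123). Here the groups were separate, and no ApcMin/+ library stood out.

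The 2 primary RNA sensors of the pathway had differences near 0, with intervals on both sides of it. Ddx58 averaged 1199 ± 257 normalised counts in knockout libraries and 1336 ± 47 in ApcMin/+ libraries (SD, n = 4 each; difference −0.18, 95% interval −0.55 to 0.18). Ifih1 averaged 1763 ± 375 in knockout libraries and 1740 ± 602 in ApcMin/+ libraries (difference 0.06, 95% interval −0.53 to 0.65). Eif2ak2, which encodes the kinase PKR that halts translation on double-stranded RNA, averaged 1613 ± 274 in knockout libraries and 1584 ± 178 in ApcMin/+ libraries (difference 0.02, 95% interval −0.33 to 0.36). The signs of Ifih1 and Eif2ak2 turned under some alternative settings. Ifih1 was at −0.48 among low Xist libraries and 0.83 among high Xist libraries, and Eif2ak2 at −0.21 and 0.42. For Ddx58, knockout libraries 2, 3 and 4 (1270, 1145 and 882) lay below every ApcMin/+ library (1297 to 1397). The unnumbered knockout library lay above them all, at 1499. Zbp1, a sensor of Z-form nucleic acid that triggers cell death, averaged 1104 ± 234 in knockout libraries and 1461 ± 338 in ApcMin/+ libraries (−0.40, limma adjusted p = 0.321).

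All 3 transcription factors were lower by their values. Their median was −0.41, and all 3 were lower at an unadjusted limma p under 0.05, where 11.6% of all genes were. Irf7 kept that call in all 19 alternative settings, Irf9 in 15 and Stat2 in 10. For Stat2 the unadjusted limma p was 0.0801 within the shared sequencing order and 0.0748 with order as covariate. It was 0.0572 with median-ratio scaling and 0.057 with quantile normalisation. Irf7, the factor that amplifies interferon production, had 2032, 1317, 1363 and 1262 normalised counts in knockout libraries, against 3080, 1859, 1903 and 3146 in ApcMin/+ libraries (−0.72, SE 0.23, limma adjusted p = 0.17). The unnumbered knockout library lay above 2 ApcMin/+ libraries, and the other 3 lay below all of them. Irf9, the DNA-binding subunit of ISGF3, had 1877, 1397, 1504 and 1504 in knockout libraries, against 1916, 1986, 1913 and 1952 in ApcMin/+ libraries (−0.31, SE 0.11, limma adjusted p = 0.202). The ApcMin/+ libraries were nearly equal. The groups did not overlap, but the gap was narrow, with 1877 in the unnumbered knockout library against 1913 in ApcMin/+ library 3. Stat2, which encodes another subunit of that factor, had 1576, 1198, 1211 and 918 in knockout libraries, against 1683, 1519, 1458 and 1737 in ApcMin/+ libraries (−0.41, SE 0.17, limma adjusted p = 0.239). Again the unnumbered knockout library alone reached the ApcMin/+ values.

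Among the modifiers, Isg15 and Usp18 stood apart by their values and the other 5 did not. The median of the 7 was −0.31. ISG15 is a ubiquitin-like protein that is joined to other proteins during the response. Isg15 had 398, 194, 310 and 160 normalised counts in knockout libraries, against 694, 473, 431 and 738 in ApcMin/+ libraries (−1.19, SE 0.32, limma adjusted p = 0.137). Usp18 removes ISG15 and also damps signalling at IFNAR2. It had 403, 352, 266 and 156 in knockout libraries, against 725, 605, 534 and 868 in ApcMin/+ libraries (−1.27, SE 0.30, limma adjusted p = 0.118). Neither gene overlapped between genotypes (28.6% of the 7 modifiers, against 10.6% of all genes), and knockout library 4 was the lowest for both.

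The remaining modifiers had differences between −0.33 and 0.02. Herc6, the main ISG15 ligase in mouse, averaged 294 ± 135 normalised counts in knockout libraries and 346 ± 72.8 in ApcMin/+ libraries (SD, n = 4 each; −0.31). Trim25, a ubiquitin ligase of the RIG-I pathway, averaged 5105 ± 661 in knockout libraries and 6526 ± 1613 in ApcMin/+ libraries (−0.33). Parp14, a mono-ADP-ribosyltransferase, averaged 2538 ± 652 in knockout libraries and 2799 ± 354 in ApcMin/+ libraries (−0.17). The groups overlapped for all 3, and none passed the test. Parp9 and Dtx3l encode partners in a ligase complex and overlap on opposite strands of chromosome 16, so reads of one may be counted for the other if strand was not used. Parp9 averaged 2424 ± 337 in knockout libraries and 2759 ± 374 in ApcMin/+ libraries (−0.19). Dtx3l averaged 2484 ± 413 in knockout libraries and 2449 ± 333 in ApcMin/+ libraries (0.02, with a sign that turned under some settings).

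**Figure D2:**
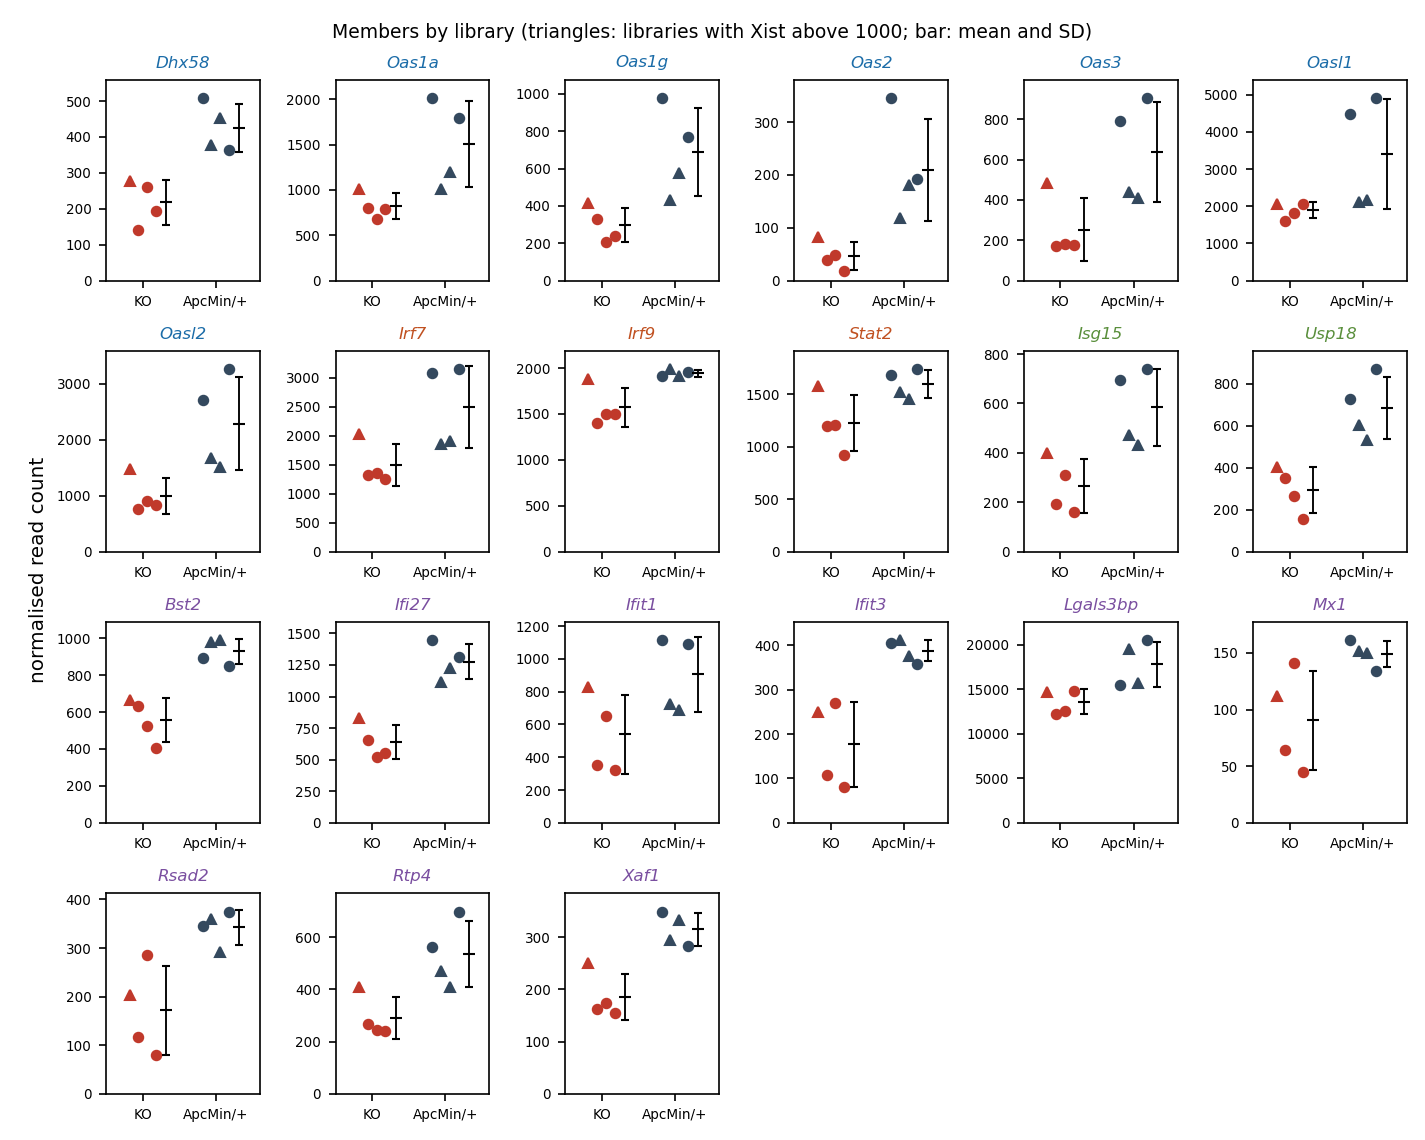
Normalised counts (vertical axes, from 0) of the 21 members lower at an unadjusted limma p under 0.05, knockout on the left and ApcMin/+ on the right of every panel, each symbol 1 library (triangles: Xist above 1000) and each bar the group mean and SD. Oas2 stays at or below 82 in the knockout libraries and at or above 118 in the ApcMin/+ libraries.

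The effectors had a median of −0.77, with 9 of 16 lower at an unadjusted limma p under 0.05 (56.2%, against 11.6% of all genes) and 6 without overlap (37.5%, against 10.6%). Ifi27, a small hydrophobic membrane protein, came nearest to the adjusted threshold of all members. It had 827, 658, 525 and 549 normalised counts in knockout libraries, against 1444, 1115, 1228 and 1314 in ApcMin/+ libraries (−1.01, SE 0.17, limma adjusted p = 0.0583). Bst2, or tetherin, holds budding virus particles at the cell surface. It had 668, 631, 523 and 406 in knockout libraries, against 895, 979, 988 and 852 in ApcMin/+ libraries (−0.76, SE 0.17, limma adjusted p = 0.108). Xaf1, which binds the apoptosis inhibitor XIAP, had 250, 163, 175 and 154 in knockout libraries, against 349, 294, 332 and 284 in ApcMin/+ libraries (−0.78, SE 0.19, limma adjusted p = 0.125). In these 3 genes both groups were compact and separate, with the unnumbered knockout library the highest of the knockout libraries.

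The Ifit genes lie side by side on chromosome 19 and encode proteins that bind foreign RNA or one another. Ifit3 had 249, 108, 270 and 80 normalised counts in knockout libraries, against 406, 411, 377 and 359 in ApcMin/+ libraries (−1.31, SE 0.39, limma adjusted p = 0.151), the largest difference among effectors. The ApcMin/+ libraries were close together, while knockout libraries 2 and 4 were far below the other knockout libraries. Ifit3 shares 61.8% of its 31-base words with Ifit3b, and the sum of the pair was 340, 161, 397 and 137 in knockout libraries, against 663, 540, 575 and 487 in ApcMin/+ libraries (−1.26, no overlap). Ifit1 had 828, 352, 652 and 324 in knockout libraries, against 1112, 727, 691 and 1092 in ApcMin/+ libraries (−0.83, SE 0.33, limma adjusted p = 0.236), and the unnumbered knockout library overlapped the ApcMin/+ range. Ifit2, their neighbour, averaged 345 ± 168 in knockout libraries and 367 ± 142 in ApcMin/+ libraries (SD, n = 4 each; −0.12, 95% interval −0.93 to 0.70), with a sign that turned under some settings. The difference between Ifit2 and Ifit3 was not tested.

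Rsad2, or viperin, makes a nucleotide that terminates viral RNA chains. It had 204, 118, 285 and 81 normalised counts in knockout libraries, against 345, 359, 291 and 375 in ApcMin/+ libraries (−1.14, SE 0.37, limma adjusted p = 0.167). The groups were separate by a narrow gap, and knockout libraries 2 and 4 were again the low ones. Cmpk2, a mitochondrial nucleotide kinase gene beside Rsad2 on chromosome 12, averaged 444 ± 127 in knockout libraries and 565 ± 65.8 in ApcMin/+ libraries (SD, n = 4 each; −0.39, limma adjusted p = 0.366). Mx1, a GTPase against influenza viruses whose gene is disrupted in C57BL/6 mice, had 112, 64, 141 and 45 in knockout libraries, against 161, 152, 150 and 134 in ApcMin/+ libraries (−0.85, SE 0.35, limma adjusted p = 0.249). Knockout library 3 alone overlapped the ApcMin/+ values. Mx2, its neighbour on chromosome 16, had 10 to 38 normalised counts in knockout libraries and 28 to 51 in ApcMin/+ libraries (−0.83, limma adjusted p = 0.371).

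Lgals3bp, a secreted glycoprotein that binds galectins, had 14742, 12181, 12564 and 14843 normalised counts in knockout libraries, against 15512, 19484, 15703 and 20496 in ApcMin/+ libraries (−0.38, SE 0.15, limma adjusted p = 0.221). Rtp4, a chaperone of membrane receptors, had 408, 266, 244 and 239 in knockout libraries, against 562, 470, 408 and 698 in ApcMin/+ libraries (−0.89, SE 0.23, limma adjusted p = 0.136). Lgals3bp did not overlap, and for Rtp4 the unnumbered knockout library and ApcMin/+ library 3 tied at 408. Ifi35, a leucine zipper protein, averaged 1525 ± 122 in knockout libraries and 2332 ± 826 in ApcMin/+ libraries (SD, n = 4 each; −0.55, limma adjusted p = 0.264). Ifi44 averaged 204 ± 99.4 in knockout libraries and 269 ± 95.7 in ApcMin/+ libraries (−0.49, limma adjusted p = 0.551). Trim30a, which damps Toll-like receptor signalling in mouse, averaged 223 ± 66.1 in knockout libraries and 243 ± 43.9 in ApcMin/+ libraries (−0.15, with a sign that turned under 1 setting). None of these 3 passed, and their groups overlapped. Samd9l, a restriction factor of poxviruses, averaged 2778 ± 276 in knockout libraries and 2469 ± 465 in ApcMin/+ libraries (0.18, limma adjusted p = 0.534), the largest value above 0 among the members, with a sign that turned among the low Xist libraries.

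Many members shared an order of libraries within each genotype. The unnumbered knockout library was the highest of the 4 knockout libraries in 28 of 37 members, and knockout library 4 was the lowest in 22. The share of all genes with these placings was not counted, so they cannot be called particular to the members. Knockout libraries 2 and 4 both lay below 3 and the unnumbered one in 25 of 37 members, against 21.6% of all genes. ApcMin/+ libraries 1 and 4 both lay above 2 and 3 in 22 of 37 members, against 36.4% of all genes. That second arrangement held for the Oas genes, Irf7, Isg15 and Usp18, and not for Ifit3, Rsad2, Mx1, Bst2, Irf9 or Xaf1. Knockout libraries 2, 3 and 4 all lay below every ApcMin/+ library in 23 of 37 members, against 13.5% of all genes. Libraries share depth and preparation over all their genes, so the members are not independent points.

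**Figure D3:**
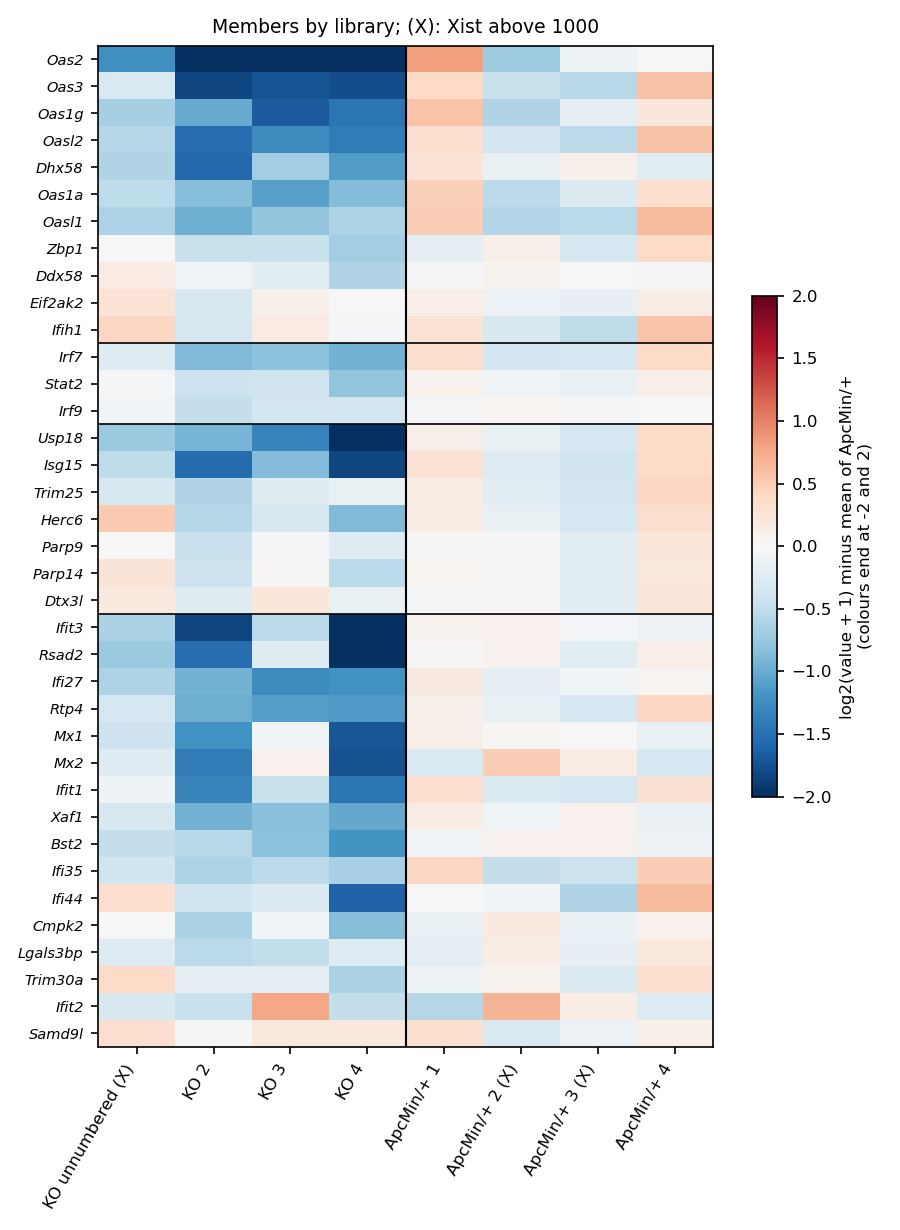
Deviation of each member in each library from its mean over ApcMin/+ libraries, in log2(value + 1) units, with members in rows grouped by role, blue below and red above that mean, and the knockout libraries to the left of the ApcMin/+ libraries. The median deviation over the 37 members was −0.31 in the unnumbered knockout library, −0.63 in knockout library 2, −0.44 in 3 and −0.88 in 4.

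By Xist class, most members had the larger difference in the low Xist libraries. Among these, 3 knockout and 2 ApcMin/+ libraries, the median of the members was −0.94 and 36 of 37 were below 0, against 61.3% of all genes. Among the high Xist libraries, 1 knockout and 2 ApcMin/+ libraries, the median was −0.05 and 21 of 37 were below 0, against 49.4% of all genes. In the low Xist libraries alone 19 members passed the adjusted threshold of limma as lower, against 8.45% of all genes, and 31 did not overlap, against 32.7%. The difference between the classes was tested in 1 model with an interaction, added after seeing the data. It was above 0 (a smaller deficit in high Xist libraries) for 36 of 37 members, against 59.7% of all genes, with a median of 0.76 against 0.11. At an unadjusted limma p under 0.05 it was positive for 19 members, or 51.4%, against 10.5% of all genes. No member and no gene passed after adjustment, with a smallest limma adjusted p of 0.0533, reached among the members by Oas3, Oasl2 and Irf7. Only 3 residual degrees of freedom remain, and the single high Xist knockout library is the unnumbered one, so the Xist class and that mouse cannot be told apart. Within ApcMin/+, absorptive enterocyte markers summed to 545046 and 672273 in low Xist libraries 1 and 4, against 198643 and 196717 in high Xist libraries 2 and 3. Adenoma Wnt target markers summed to 60610 and 61594 in the former, against 99577 and 91416 in the latter. Xist class and tissue content thus cannot be told apart there either.

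**Figure D4:**
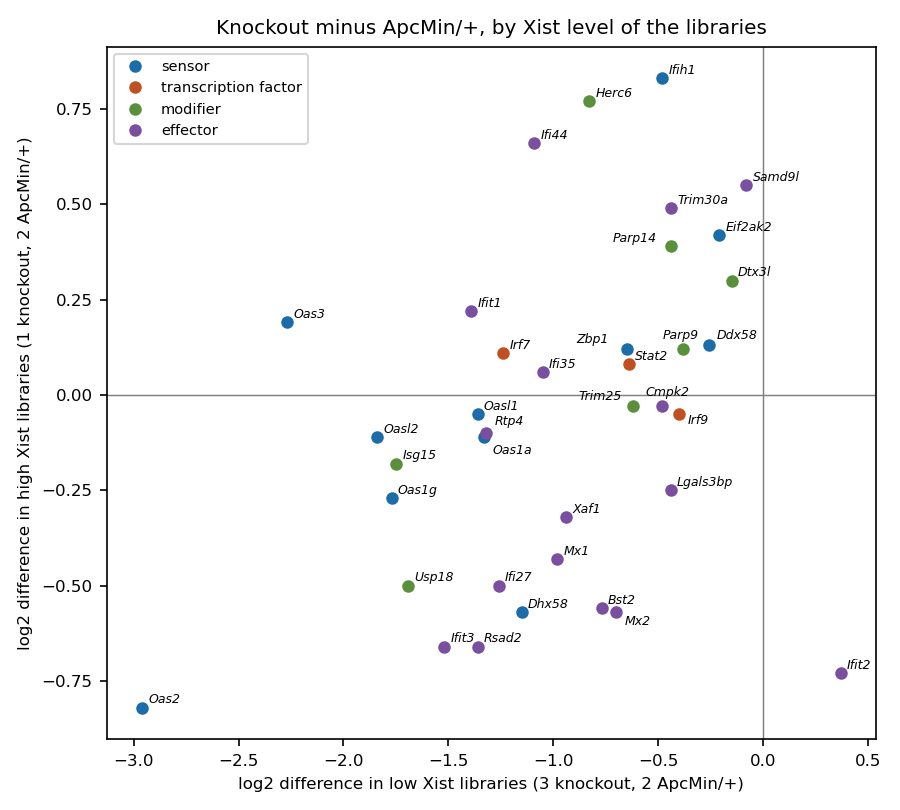
Log2 difference, knockout minus ApcMin/+, of each member among low Xist libraries (horizontal) and among high Xist libraries (vertical), with colours for roles. Oas3 stands at −2.27 among low Xist libraries and 0.19 among high Xist libraries, while Bst2 stands at −0.77 and −0.56.

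Some members were below 0 in both classes, with differences that were closer or further apart. Bst2 was at −0.77 among low Xist libraries and −0.56 among high Xist libraries, with an interaction of 0.21 (limma adjusted p = 0.841). Lgals3bp was at −0.44 among low Xist libraries and −0.25 among high Xist libraries, and Mx2 at −0.70 among low Xist libraries and −0.57 among high Xist libraries. By value further apart, the antiviral effectors Rsad2 and Ifit3 were at −1.36 and −1.52 among low Xist libraries and each at −0.66 among high Xist libraries. A p that misses the threshold does not show that the classes are alike. Within the sequencing order that holds all 4 knockout libraries and ApcMin/+ libraries 1 and 2, the median of the members was −0.70, with 18 lower at an unadjusted limma p under 0.05 (7.2% of all genes), 16 without overlap (15.0% of all genes) and 0 past the adjusted threshold. The other order holds ApcMin/+ libraries only and gives no value. The normalisation had removed a direction that set ApcMin/+ libraries 1 and 2 (weights −0.471 and −0.513) against 3 and 4 (0.594 and 0.39). Each pair's mean was thus nearly the mean of all 4 ApcMin/+ libraries. A median close to the −0.72 of all libraries was therefore largely set by the normalisation and does not test the order.

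The interferons themselves were at or near 0. Of 21 interferon ligands none passed the filter. Among type I ligands, Ifna6 was 1 in the unnumbered knockout library, Ifna15 was 2 in knockout library 3 and Ifnb1 was 1 in knockout library 2, and all 3 were 0 elsewhere. Ifne, the epithelial interferon epsilon, had 1, 2, 2 and 2 normalised counts in knockout libraries, against 6, 3, 2 and 9 in ApcMin/+ libraries, and Ifnz had 1, 0, 5 and 1 in knockout libraries, against 3, 0, 3 and 0 in ApcMin/+ libraries. Among the type III ligands, Ifnl2 was 0 in all knockout libraries and 0, 1, 1 and 0 in ApcMin/+ libraries, and Ifnl3 was 1 in ApcMin/+ library 1 and 0 elsewhere. Ifng, the type II interferon, had 3, 5, 8 and 4 in knockout libraries, against 3, 7, 1 and 22 in ApcMin/+ libraries. These values are too low for a comparison.

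Receptors and kinases of the pathway differed little as a group. Over 14 genes the median difference was −0.03, with 2 lower (14.3%, near the 11.6% of all genes) and 0 higher (7.39% of all genes) at an unadjusted limma p under 0.05 and 0 past the adjusted threshold. Ifnar1 averaged 2595 ± 40.2 normalised counts in knockout libraries and 2584 ± 365 in ApcMin/+ libraries (SD, n = 4 each; difference 0.02). Ifnar2 averaged 962 ± 61.1 in knockout libraries and 884 ± 106 in ApcMin/+ libraries (0.13). Jak1 was at 0.03 and Tyk2 at −0.19, and neither passed. Socs1, a feedback inhibitor of JAK kinases, had 173, 167, 165 and 157 in knockout libraries, against 220, 242, 262 and 189 in ApcMin/+ libraries (−0.45, SE 0.17, limma adjusted p = 0.209), without overlap. Ifngr2, a subunit of the interferon gamma receptor, was at −0.30 (limma adjusted p = 0.24), and Ptpn6, a phosphatase that acts on JAK signalling, at −0.28 (limma adjusted p = 0.287).

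Adaptors and induction factors upstream of interferon had a median of −0.11 over 24 genes. At an unadjusted limma p under 0.05, 4 were lower (16.7%, against 11.6% of all genes) and 1 higher (4.17%, against 7.39%), shares close to those of all genes. Ikbke, a kinase of IRF3, had 947, 851, 829 and 851 normalised counts in knockout libraries, against 1138, 1098, 1060 and 1203 in ApcMin/+ libraries (−0.37, SE 0.10, limma adjusted p = 0.137). Irf3, the factor that starts interferon transcription, had 2200, 1993, 1799 and 1589 in knockout libraries, against 2623, 2431, 2376 and 2720 in ApcMin/+ libraries (−0.43, SE 0.12, limma adjusted p = 0.144). For both genes all knockout libraries lay below all ApcMin/+ libraries. Adar, an RNA editing enzyme that prevents sensing of self RNA, was at −0.35 (limma adjusted p = 0.254), and Tlr7, an endosomal receptor for single-stranded RNA, at 0.95 (limma adjusted p = 0.216).

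A wider list of other interferon stimulated genes, 73 of 83 tested, had a median of −0.22. At an unadjusted limma p under 0.05, 16 were lower (21.9%, against 11.6% of all genes) and 3 higher (4.11%, against 7.39%). Without overlap, 13 were lower (17.8%, against 10.6% of all genes) and 1 higher (1.37%, against 5.5%). None passed the adjusted threshold. Oas1b had 54, 29, 28 and 24 normalised counts in knockout libraries, against 86, 79, 89 and 68 in ApcMin/+ libraries (−1.29, SE 0.30, limma adjusted p = 0.117). Shisa5 was at −0.50 (limma adjusted p = 0.137), Tor3a at −0.73 (limma adjusted p = 0.14) and Ly6e, a membrane protein with roles in virus entry, at −0.50 (limma adjusted p = 0.143). All 4 were without overlap.

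**Figure D5:**
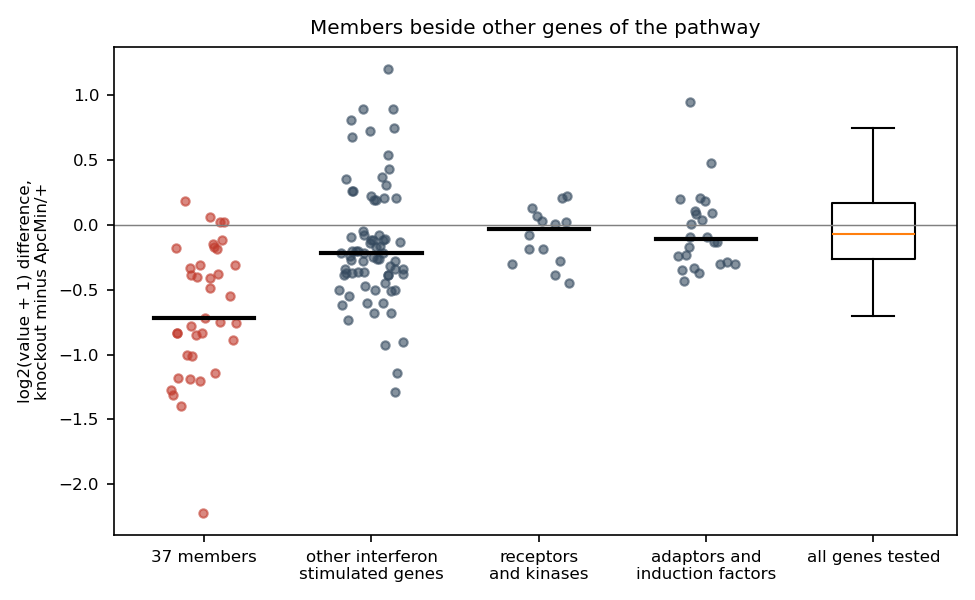
Log2 difference, knockout minus ApcMin/+, of each tested gene of the members and of the 3 pathway lists with tested genes, each point 1 gene and each bar the median, with a box from the lower to the upper quartile for all genes tested and whiskers from percentile 5 to percentile 95. Medians are −0.72 for the members, −0.03 for receptors and kinases, −0.11 for adaptors and induction factors and −0.22 for other interferon stimulated genes.

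Members with the ISRE core and those without it were both lower by their values. The 13 with a match had a median of −0.83 with 5 without overlap, the 14 without a match a median of −0.39 with 5 without overlap, and the 10 with no promoter entry a median of −0.87 with 4 without overlap, where 10.6% of all genes were lower without overlap. Members with a match included Ddx58, Eif2ak2 and Ifih1, whose differences lay between −0.18 and 0.06. The members lie on many chromosomes, with 6 Oas genes on chromosome 5. Only Isg15 and Ddx58 share chromosome 4 with Sfn, at 22.6 and 93.4 Mb from it.

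Markers of other cells also differed between genotypes, and their part in the members' differences was not tested. Of 10 tested tuft cell markers 8 were lower without overlap (80.0%, against 10.6% of all genes). The summed markers were 10983 to 14349 in knockout libraries against 15791 to 18613 in ApcMin/+ libraries. Avil alone supplied most of that sum, with 8404 to 11014 in knockout libraries and 11654 to 13988 in ApcMin/+ libraries (difference −0.42). The sum thus does not give the size of the difference in the other tuft cell markers. Il25, a defining product of tuft cells, was under 10 in every library. Of 11 fibroblast markers 5 were higher without overlap (45.5%, against 5.5% of all genes), with sums of 46475 to 92593 in knockout libraries and 32380 to 45009 in ApcMin/+ libraries. Of 9 tested neutrophil markers 6 were higher without overlap (66.7%, against 5.5% of all genes). Their sums overlapped, 7967 to 13255 in knockout libraries and 9642 to 13536 in ApcMin/+ libraries, but Ltf alone supplied most of them, with 6058 to 7954 in knockout libraries and 7609 to 12597 in ApcMin/+ libraries (difference −0.47), the opposite direction to the other markers. Of 11 endothelial markers 10 were above 0, against 7178 of 17523 genes, and Lyve1, of lymphatic endothelium, was higher (1.19, limma adjusted p = 0.0497). Esam was lower, at 579 to 703 in knockout libraries against 748 to 783 in ApcMin/+ libraries. The markers summed to 21838 to 29199 in knockout libraries and 13807 to 28041 in ApcMin/+ libraries. Prox1, also a listed adenoma Wnt target, supplied 10909 to 12853 and 5871 to 13613 of these, so the sum does not measure endothelium alone. Plasmacytoid dendritic cells, a main source of type I interferon, had marker sums of 13930 to 15817 in knockout libraries and 14086 to 20039 in ApcMin/+ libraries, from a list that includes Bst2. Tcf4, Ly6d and Klk1 supplied nearly all of that sum, so it does not measure these cells, and their more specific marker Siglech had 34, 4, 6 and 4 in knockout libraries, against 12, 4, 4 and 12 in ApcMin/+ libraries. T cell and NK cell markers summed to 995 to 1430 in knockout libraries and 1010 to 2342 in ApcMin/+ libraries. Macrophage and monocyte markers summed to 9923 to 16394 in knockout libraries and 9765 to 12785 in ApcMin/+ libraries. Absorptive enterocyte markers summed to 404530 to 619437 in knockout libraries, against 545046, 198643, 196717 and 672273 in ApcMin/+ libraries, so ApcMin/+ libraries 1 and 4 stood above 2 and 3 here as they did for 22 of 37 members. Of these 15 markers 14 were above 0 (median 0.65), against 7178 of 17523 genes. Sis (2.37) and Enpep (1.61) were higher without overlap (13.3%, against 5.5% of all genes).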

How the data were processed

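RNA-seq of 8 adenoma libraries, 4 per genotype and 1 per mouse, was analysed. The authors deposited a sheet of read counts after RUVs, which subtracts unwanted factors estimated among replicates, per the file headers. The values are treated as a score, not as counts, since the deposited numbers are whole but no longer raw. Per the submitters' processing notes, reads were placed on mm10. Not given in the sources used here were the aligner, the counter, the annotation and the RUVs settings, and raw depth is unknown, so no counting interval is given. The upper quartile was 152 to 157 in every library. Of 48440 rows, 27 whose names had become dates were left out, and columns of other samples numbered 0.

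Values were log2(value + 1) transformed. Folds on this scale understate changes of low genes. Genes at 10 or more in at least 4 libraries (17523) were fitted with limma 3.58.1 in R 4.3.3 with a trended prior, and p-values were Benjamini-Hochberg adjusted over all of them. RUVs had removed 1 of 6 replicate directions (singular value 0.0954 against 53.8 for the largest, over 12052 genes), which makes p-values too small. The removed direction was therefore a covariate, which leaves 5 residual degrees of freedom. The fit was tested on simulated data. Single genes were also compared by the exact two-sided permutation test. The design gives each library's values for members without overlap or with an unadjusted limma p under 0.05 and for the widest difference per role, and for each pathway list the 4 genes of smallest p, of which 1 is not reported here. Members, roles and gene lists were chosen with earlier results of these data known. Of the pathway and marker lists, symbols in the sheet alone were matched. Promoters came from RefSeq, GRCm38.p6. Shared 31-base words were counted in GENCODE transcripts of the same build. The alternatives covered the pseudocount, the filter, scaling, covariates, sequencing order, Xist class and each library left out.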

Additional observations from a re-analysis of the deposited data

Results flagged for a closer look

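In 3 of the 74 groups of 4 libraries examined (37 members in each genotype), 1 library lay far from the other 3 by Dixon's test at the 95% level, in which the gap to the nearest other library is divided by the group's range. Chance gives about 1 in 20 such groups. Gap and range were both taken on the log2(value + 1) scale. Oas3 had 484 in the unnumbered knockout library and 170, 181 and 175 in the other knockout libraries, a gap of 0.94 of the range. Irf7 had 2032 in the unnumbered knockout library and 1317, 1363 and 1262 in the others, a gap of 0.838. Ifit2 had 596 in knockout library 3 and 279, 256 and 249 in the others, a gap of 0.87. Without the unnumbered library the difference was −1.77 for Oas3 and −0.88 for Irf7.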

How the results depend on the processing

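Across 19 alternatives, 31 of 37 members kept their sign, as did 37 of 37 under median-ratio scaling and quantile normalisation, which moved the median of all genes to −0.01 and −0.03 from −0.07. The count of members lower at limma's adjusted threshold was 0, against 3 (Oas2, Bst2 and Ifi27; 1.1% of all genes) with genotype alone, 19 among low Xist libraries, and 0 to 4 with each library left out: 4 without ApcMin/+ library 2 (Oas1a, Oas1g, Oas2 and Ifi27; 0.999% of all genes) and 1 without ApcMin/+ library 4 (Ifi27; 0.331%). Members lower at an unadjusted limma p under 0.05 numbered 21, against 16 with order as covariate (1009 of 17523 genes) and 28 among low Xist libraries (3779 of 17523). Of the 19 alternatives that call held in 10 for Stat2 and Mx1, 13 for Ifit1, 14 for Oasl1 and 15 for Irf9 and Lgals3bp. It held in all 19 for the rest of the 21. Members without overlap numbered 14, against 31 among low Xist libraries and 14 to 23 with each library left out, 23 being without the unnumbered knockout library (13.5% of all genes). They numbered 13 with median-ratio scaling (1294 of 17523 genes) and 13 with quantile normalisation (1545 of 17523). Among low Xist libraries the medians were −1.33 for sensors, −0.64 for transcription factors and −0.62 for modifiers. Calls lower and higher over all genes numbered 25 and 33, against 18 and 38 with median-ratio scaling and 20 and 40 with quantile normalisation. Signs turned for members near 0, given with the other end of the range over libraries left out. Eif2ak2 was −0.21 among low Xist libraries, −0.02 and −0.04 without ApcMin/+ library 2 or 3, −0.07 without the unnumbered knockout library and −0.01 without knockout library 3, and at most 0.13 (without knockout library 2). Ifih1 was −0.48 among low Xist libraries, −0.05 and −0.11 without ApcMin/+ library 2 or 3 and −0.06 without the unnumbered knockout library, and at most 0.25 (without ApcMin/+ library 4). Dtx3l was −0.15 among low Xist libraries, 0.00 without ApcMin/+ library 1, −0.06 without ApcMin/+ library 3, −0.05 without the unnumbered knockout library and −0.06 without knockout library 3, and at most 0.10 (without ApcMin/+ library 4). Ifit2 was 0.37 among low Xist libraries, 0.11 without ApcMin/+ library 2 and 0.01 without knockout library 4, and −0.41 without knockout library 3. Samd9l was −0.08 among low Xist libraries, and Trim30a was 0.01 without knockout library 4 and −0.33 without the unnumbered one. The cause was not tested. Mx2 has no value under a filter of 50. Raw depth is unknown, so what it limits cannot be stated.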

Other observations

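Of the wider list, 3 other interferon stimulated genes were higher in knockout adenomas at an unadjusted limma p under 0.05 and are named here with their values known. Aim2, a sensor of cytosolic DNA, had 582, 912, 1072 and 1012 normalised counts in knockout libraries, against 668, 346, 558 and 380 in ApcMin/+ libraries (difference 0.89, limma adjusted p = 0.157), with the unnumbered knockout library inside the ApcMin/+ values. Slfn1, a regulator of lymphocyte quiescence in mouse, had 44, 54, 44 and 52 in knockout libraries, against 33, 23, 35 and 20 in ApcMin/+ libraries (0.81, limma adjusted p = 0.189), without overlap. Slfn9, of the same family, had 1890, 1011, 1998 and 1350 in knockout libraries, against 719, 1248, 814 and 1070 in ApcMin/+ libraries, with overlap between the groups.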
